A study of Mus musculus with 8 samples.

Results

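RNA was compared in A223, a line of mouse squamous cell carcinoma, between cells that carried a knockdown of PRDX6 and had also received largazole, and parental cells that had received neither. The comparison held 4 of the 8 polyA RNA libraries of the series. They were 2 libraries of PRDX6 knockdown cells after 18 h of 100 nM largazole (KD largazole) and 2 of parental cells in DMSO at 0 h (parental DMSO). The other 4 libraries were 2 of parental cells after 18 h of 100 nM largazole and 2 of KD cells in DMSO at 0 h, and served to tell which part of a combined change adds up and which part opposes. Libraries were chosen by genotype and treatment alone, and no measured value entered the choice. The sources used here do not say how the knockdown was made or whether the KD cells are 1 clone. Drug and time changed together, and no cells with a non-targeting construct were analysed here. The labels do not state whether replicates were separate cultures, so p-values here reflect only how far these libraries differ from each other, a spread that may be technical.

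The peroxiredoxin PRDX6 detoxifies hydrogen peroxide and oxidised membrane phospholipids. Largazole inhibits class I histone deacetylases (HDACs), enzymes that remove acetyl groups from histones and are recruited to genes by corepressor complexes, and HDAC inhibitors are known to switch on silent genes and to arrest dividing cells. Among the programmes followed here, the unfolded protein response raises chaperones of the endoplasmic reticulum (ER) when proteins misfold there, the integrated stress response raises amino acid supply genes through the factor ATF4, and interferon signalling raises antiviral genes through STAT and IRF factors.

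Total estimated counts were 13020492 to 15613216 per library over 24411 genes, and 12517 genes had enough counts to be tested. Below, untreated means parental DMSO, and the drug alone, the knockdown alone and both mean parental largazole, KD DMSO and KD largazole. Levels are given as CPM, counts scaled to the same library total, for replicate 1 and replicate 2, and changes as log2 fold changes against parental DMSO with their standard error (SE). Replicates of KD largazole stood further apart than those of the other groups. Their log2 difference had an SD of 0.359 over genes there, against 0.178 in parental DMSO, 0.21 in parental largazole and 0.195 in KD DMSO. Rn45s, the ribosomal RNA precursor, was at 23920 CPM in KD largazole replicate 1 and 742 CPM in replicate 2, and its part in that spread was not tested. Of the markers of squamous keratinocytes, Krt5, Krt15, Krt17, Krt6a, Trp63, Cdh1 and Epcam were at 0 to 3 counts in each parental DMSO library, while Itga6 stood at 391 and 388 CPM, Itgb4 at 98.0 and 92.9 CPM, Krt18 at 97.8 and 94.8 CPM, Krt8 at 2036 and 1908 CPM and the mesenchymal filament gene Vim at 6489 and 6213 CPM. Markers of leukocytes summed to 36.3 and 37.9 CPM in parental DMSO and to 23.1 and 15.6 CPM in KD largazole, nearly all of it Cd14, with 11 of 12 markers under 1 CPM in every library. Of 8 endothelial markers 6 were under 1 CPM in each parental DMSO library. Of 8 melanocyte and Schwann cell markers 7 were.

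The targeted gene was low in the KD cells with and without the drug. Prdx6 (chr1:161240112-161251219, minus strand, GRCm38, protein-coding) was at 297 and 283 CPM in parental DMSO and at 81.1 and 64.9 CPM in KD largazole, with 257 and 233 CPM after the drug alone and 86.6 and 79.2 CPM with the knockdown alone. All 4 KD libraries lay below all 4 parental ones. Prdx6 fell, with a log2 fold change of -1.99 ± 0.11 in the combined comparison (SE, adjusted p = 4.50e-07), and this differed from the sum of both single changes by 0.06 (adjusted p = 0.976).

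In the fit of all 8 libraries, most tested genes changed when both perturbations were set against neither. Of 12517 genes tested, 7281 (58.2%) passed an adjusted p of 0.05 in KD largazole against parental DMSO, 3912 higher (31.3%) and 3369 lower (26.9%). Changes of at least 2-fold were more often rises, with 2081 genes higher (16.6%) and 853 lower (6.81%). Largazole alone changed 6175 genes (49.3%) and the knockdown alone 1392 (11.1%), the first with 26.8% of all genes higher and 22.6% lower and the second with 7.11% higher and 4.01% lower. Each of these comparisons uses the same 2 parental DMSO libraries, so that an error in those libraries enters all of them alike. Fewer genes passed in the combined comparison when either parental DMSO library was left out. With the 4 compared libraries fitted alone, 3315 genes were higher and 2943 lower. In such bulk libraries fewer cells of a type and less RNA per cell cannot be told apart. Without KD largazole replicate 1, the library with the high Rn45s level, 3988 genes were higher and 3711 lower.

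Genes were then sorted by which single perturbation passed. Of the 7281 genes changed in the combination, 4431 had passed with largazole alone only, 376 with the knockdown alone only, 738 with both in the same direction and 98 with both in opposite directions. The other 1638, among them 747 higher and 891 lower, had passed with neither, and none of those passed the test of departure from the sum. The genes that both perturbations moved in the same direction numbered 740, of which 499 rose in both (3.99% of all tested) and 241 fell in both (1.93%). All but 2 of the 499 were also higher in the combination, and all 241 were lower. In 447 of the 499 the combined change went past both single changes, but in 467 it fell short of their sum (median sum 2.18). Of the 241 genes that fell in both, 133 went past the sum and 108 fell short of it. The median combined log2 fold change was 1.80 for genes that rose in both and -1.16 for those that fell in both, and 9 of the 499 passed the departure test, each below the sum. These genes were picked by single changes that passed against the same parental DMSO libraries. For them the share that passed in the combination and the sum of those changes are only descriptions. These class sizes depended on single libraries: adding genes numbered 200 without parental DMSO replicate 1, 204 without replicate 2, 261 without KD DMSO replicate 1, 340 without replicate 2, 448 and 443 without parental largazole replicate 1 and 2, and 1671 or 1696 when KD largazole replicate 1 or 2 was left out.

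**Figure D1:**
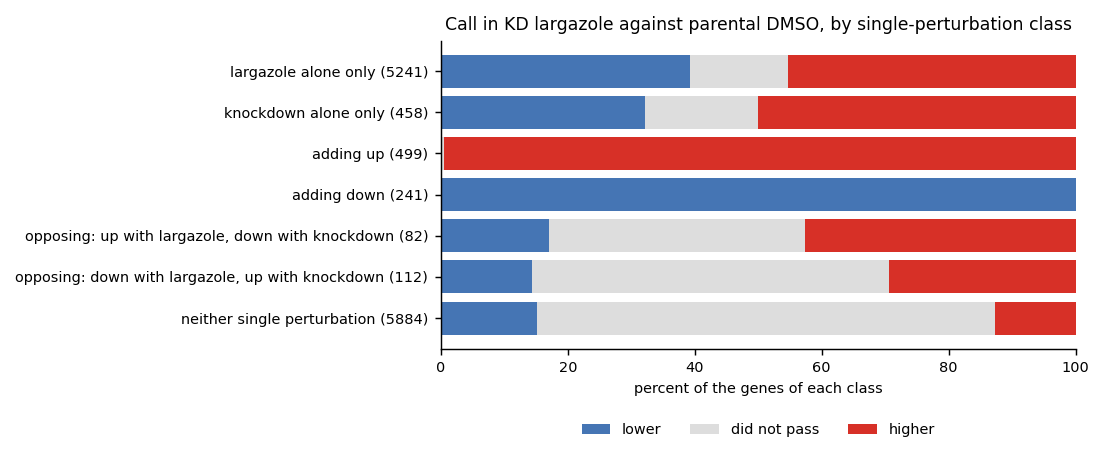
Share of the genes of each class (horizontal axis, percent) that were lower, did not pass or were higher in KD largazole against parental DMSO, with the number of genes in brackets. Nearly all of the 740 adding genes passed in the shared direction, whereas 96 of the 194 opposing genes did not pass. Since the classes were picked against the same parental DMSO libraries, these shares are only a description.

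The test of departure from the sum, which asks whether the largazole response differed between genotypes, was passed by 29 genes (0.232% of all tested), 24 below the sum (0.192%) and 5 above it (0.0399%). At an unadjusted p of 0.05, 1089 genes (8.7%) passed. Simulated 2-fold departures were recovered in 71.6% of cases and 1.5-fold ones in 14.9%. The simulation gave every group the same spread and no single-perturbation changes, and set departures only in genes at 5 CPM or more. Since replicates of KD largazole stood further apart than those of the other groups, these shares need not hold here, and many smaller departures may be missed. Which genes pass also depended on single libraries. There was 1 gene above and 1 below the sum without parental DMSO replicate 1 or 2, parental largazole replicate 2 or KD DMSO replicate 1. There were 2 above and 1 below without parental largazole replicate 1, and 2 above and 11 below without KD DMSO replicate 2. Leaving out KD largazole replicate 1 gave 166 above and 331 below, and leaving out its replicate 2 gave 211 and 333. Hspa5 and Gm5424 passed in each of these 8 refits. The counts of Gm5424 cannot be told apart from those of Ass1, of which it is a near copy.

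Genes of ER chaperones fell in the combination, several of them further than the single changes sum to. In KD largazole 21 of 25 tested members of this list (chaperones and genes of the unfolded protein response) were lower than in parental DMSO and none was higher, beside 26.9% lower and 31.3% higher among all genes, with a median log2 fold change of -0.64 against 0.04 over all tested genes. Largazole alone left the median at 0.05, with 6 higher and 5 lower, beside 26.8% and 22.6% of all genes. The knockdown alone put it at -0.53, with 16 lower, beside 4.01% of all genes. Of the 25, 8 passed the departure test, each below the sum, beside 0.192% of all genes. Among these 8 only the call of Hspa5 did not depend on single libraries. The stretches upstream of 3 of these genes are shown because each holds the ER stress response element, CCAAT and CCACG with 9 bases of any kind between them, to which ATF6 and NF-Y are known to bind. Capitals mark its fixed letters on either strand, the sequences are the 250 bases before the RefSeq start in the GRCm38.p6 table, and each reads in the direction of its gene.
Hspa5 (chr2:34771840-34772089, plus strand): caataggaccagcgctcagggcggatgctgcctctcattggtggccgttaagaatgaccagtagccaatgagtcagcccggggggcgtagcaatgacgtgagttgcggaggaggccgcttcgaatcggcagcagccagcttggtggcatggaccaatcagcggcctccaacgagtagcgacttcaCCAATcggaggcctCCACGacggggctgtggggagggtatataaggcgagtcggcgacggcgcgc
Hsp90b1 (chr10:86705445-86705694, minus strand): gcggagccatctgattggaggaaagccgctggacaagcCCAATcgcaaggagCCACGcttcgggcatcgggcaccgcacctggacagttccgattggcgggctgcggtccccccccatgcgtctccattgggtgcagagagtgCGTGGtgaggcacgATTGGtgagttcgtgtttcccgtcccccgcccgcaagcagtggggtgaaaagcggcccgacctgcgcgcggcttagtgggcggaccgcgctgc
Creld2 (chr15:88819396-88819645, plus strand): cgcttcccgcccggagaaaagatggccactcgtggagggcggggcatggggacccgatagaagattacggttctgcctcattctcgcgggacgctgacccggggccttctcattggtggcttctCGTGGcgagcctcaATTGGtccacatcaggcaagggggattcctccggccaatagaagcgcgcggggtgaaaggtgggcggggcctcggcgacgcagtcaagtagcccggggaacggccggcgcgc
The element was found in 9 of the 21 list members that had a promoter window (300 bases), among them Calr, Canx, Dnajc3 and Pdia6, and in 0.119% of all 32851 windows on either strand. A match is a description of the letters and not a measured binding site.

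Hspa5, which encodes BiP, the main ER chaperone and the sensor-bound regulator of the unfolded protein response, showed the pattern most clearly. Its level was 2351 and 2316 CPM untreated, 2617 and 2657 CPM after the drug alone, 1223 and 1297 CPM with the knockdown alone and 451 and 451 CPM with both. Thus the KD largazole libraries lay below every other library, although the drug alone gave 0.18 ± 0.07 (adjusted p = 0.0668). Hspa5 fell, with a log2 fold change of -2.37 ± 0.08 (adjusted p = 3.23e-08) and a departure of -1.66 from the sum (adjusted p = 1.82e-04). Hsp90b1, the ER paralogue of HSP90, stood at 3710.2 and 3564 CPM in parental DMSO and 1114 and 1087 CPM in KD largazole, with 3415 and 3538 CPM under the drug alone and 2131 and 2191 CPM with the knockdown alone. It fell (-1.72 ± 0.08), with a departure of -0.91 from the sum. Creld2, which encodes an ER-resident disulfide isomerase, went from 185 and 175 to 40.0 and 32.2 CPM (log2 fold change -2.32 ± 0.11) and lay -1.13 from the sum. For these 3 genes no KD largazole library overlapped a library of another group. Exons of Hsp90b1 overlap those of a gene on the other strand, as do those of many other genes named below, Usp18, Cdkn1a, Loxl2, Car9 and Bnip3 among them, and reads of such pairs cannot be told apart where counting ignored strand, a setting that is unknown here.

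The other ER genes below the sum were Herpud1, which takes part in ER-associated degradation (log2 fold change -1.75, departure -1.21), Pdia4, a protein disulfide isomerase (-1.75, departure -0.99), Hyou1, a chaperone of the HSP70 family (-1.98, departure -0.85), Dnajc3, a co-chaperone of BiP (-1.51, departure -0.69), and Calr, calreticulin (-1.07, departure -0.79). Pdia4 and Calr were among 4 list members that the single perturbations moved in opposite directions, up with largazole (0.23 and 0.31) and down with the knockdown (adjusted p = 3.86e-05 and 0.00249), and both fell further in the combination than with the knockdown alone. The rise with largazole was lost without 5 of the 8 single libraries for Pdia4 (adjusted p up to 0.175) and without 3 for Calr (up to 0.146). Sdf2l1 was another of them, with a log2 fold change of -1.24 ± 0.10 and a departure of -0.47 that did not pass (adjusted p = 0.343). P4hb, Xbp1, Derl2 and Sec61b did not pass in the combined comparison. Leaving out KD largazole replicate 1 made Xbp1 and Derl2 pass as falls (adjusted p = 0.0159 and 0.0124), and leaving out its replicate 2 made Sec61b pass as a rise (0.00156). Xbp1, a transcription factor of the response that is regulated by splicing, which gene counts do not show, was at 127 and 126 CPM against 116 and 107 CPM. Derl3 had too few counts to be tested.

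**Figure D2:**
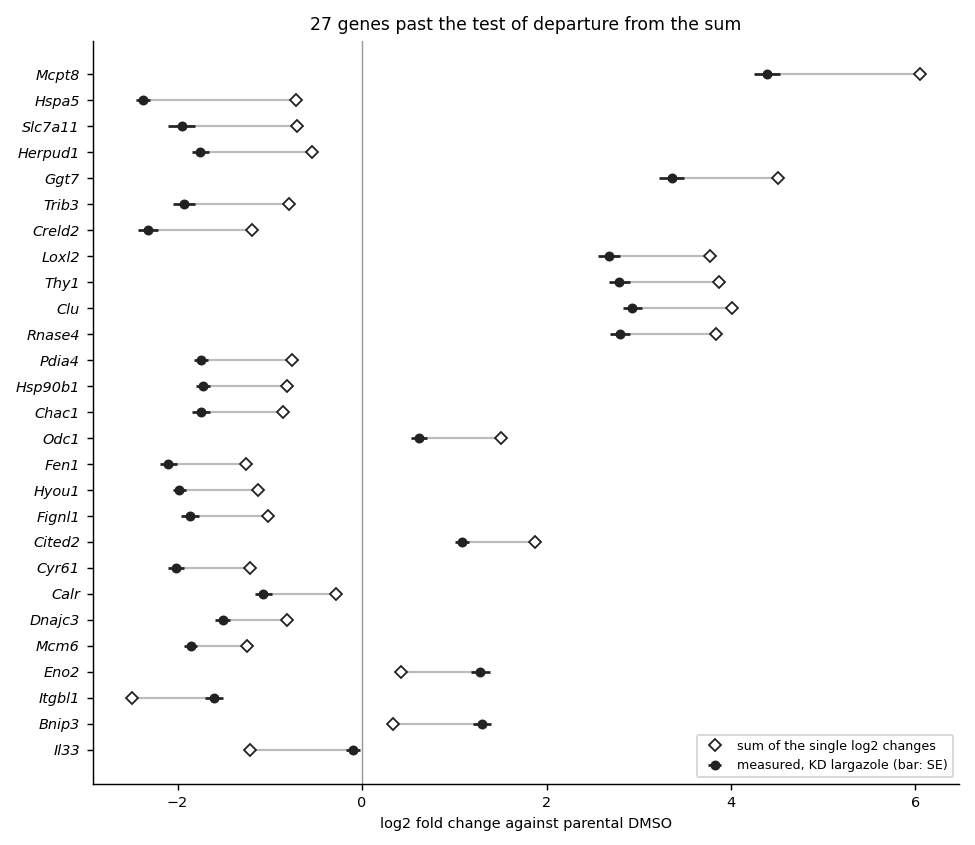
Measured log2 fold change of KD largazole against parental DMSO (filled circles, bars are SE) and the sum of both single log2 changes (open diamonds) for 27 of the 29 genes that passed the departure test, with Ass1 and Gm5424 left out because their counts cannot be told apart. The ER genes Hspa5, Creld2, Hsp90b1 and Hyou1 lie left of their sums, while Eno2, Bnip3, Itgbl1 and Il33 lie right of theirs.

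Interferon-stimulated genes rose nearly as one, at a size close to that of the knockdown alone. In KD largazole 40 of 41 tested members were higher, beside 31.3% of all genes, and none was lower. Members with few counts in parental DMSO, such as Mx1 and Iigp1, could pass the filter only through the groups where they are high. Each of these held 2 counts over both parental DMSO libraries. Since the list was also chosen with earlier results of these data known, its share beside that of all genes is only a description. The median log2 fold change was 2.92 in the combination, 2.87 with the knockdown alone (41 higher) and 0.84 with largazole alone (16 higher). Among all tested genes 7.11% were higher with the knockdown alone and 26.8% with largazole alone. The median departure was -0.86, and no member passed that test. Cxcl10 was the member that did not pass in the combination. The promoters of Ifit1, Ifit3 and Isg15 are shown because they hold repeats of the core of the interferon-stimulated response element, GAAA and GAAA with 2 bases of any kind between them, which IRF factors are known to bind, with its fixed letters in capitals on either strand and read from the same table.
Ifit1 (chr19:34640639-34640888, plus strand): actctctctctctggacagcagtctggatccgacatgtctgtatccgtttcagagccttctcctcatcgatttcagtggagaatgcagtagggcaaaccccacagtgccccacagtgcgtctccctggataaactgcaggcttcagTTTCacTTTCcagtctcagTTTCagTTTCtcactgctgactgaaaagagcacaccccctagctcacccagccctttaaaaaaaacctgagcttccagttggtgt
Ifit3 (chr19:34583279-34583528, plus strand): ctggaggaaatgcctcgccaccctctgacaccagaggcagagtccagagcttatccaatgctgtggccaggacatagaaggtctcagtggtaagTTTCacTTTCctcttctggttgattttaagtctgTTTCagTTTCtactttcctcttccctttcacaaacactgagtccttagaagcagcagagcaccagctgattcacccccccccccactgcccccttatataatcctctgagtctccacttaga
Isg15 (chr4:156200819-156201068, minus strand): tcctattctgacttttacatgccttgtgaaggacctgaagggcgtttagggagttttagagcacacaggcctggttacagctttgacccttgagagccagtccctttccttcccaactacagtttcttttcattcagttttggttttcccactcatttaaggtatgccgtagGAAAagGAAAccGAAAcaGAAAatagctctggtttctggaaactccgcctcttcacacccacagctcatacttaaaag
Ifit1 and Ifit3 hold 2 matches each on the other strand, and Isg15 holds 3 overlapping matches. Of 29 list members with a window 17 held the core, against 3.44% of all windows.

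Ifit1, which binds viral RNA, was at 2.66 and 2.50 CPM in parental DMSO and 2.45 and 3.69 CPM in parental largazole, against 44.1 and 28.4 CPM with the knockdown alone and 21.5 and 23.8 CPM with both. The KD and parental libraries did not overlap, with the drug or without it. Its combined log2 fold change was 3.13 ± 0.27 (adjusted p = 6.41e-06), beside 3.81 for the knockdown and 0.26 for largazole. Isg15, a ubiquitin-like modifier, was at 2.07 and 2.36 CPM in parental DMSO and 43.9 and 35.0 CPM in KD largazole, inside the range of KD DMSO at 55.3 and 18.4 CPM. Replicates of KD DMSO stood apart for Oas2 too, at 8.17 and 2.65 CPM. Usp18, the protease that removes ISG15 and dampens interferon signalling, rose by 4.73 ± 0.53, Oas2, a sensor of double-stranded RNA, went from 0.0739 and 0.135 to 8.96 and 9.51 CPM, and Zbp1, which senses Z-RNA and Z-DNA, rose by 4.91 ± 0.53. Irf7, the factor that drives type I interferon genes, rose by 4.47 ± 0.45. Over both parental DMSO libraries Oas2 held 3 counts, which gives a ratio of 87.4 (exact 95% binomial interval 29.6 to 427, counting error only).

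Of 19 tested genes of antigen presentation by MHC class I 13 were higher and 3 lower, where 31.3% and 26.9% of all tested genes were, and the median log2 fold change was 0.74. Without parental DMSO replicate 1 the number higher was 8. H2-T23, a non-classical class I gene, went from 18.1 and 17.4 to 114 and 90.7 CPM (log2 fold change 2.52 ± 0.21) and Tapbp, which loads peptides, from 84.3 and 91.4 to 235 and 231 CPM (1.41 ± 0.12). Both had risen with each single perturbation. H2-Q4, Erap1 and Tapbpl fell, with log2 fold changes of -1.15, -0.85 and -0.56, the last of these not without parental DMSO replicate 1 (adjusted p = 0.262) or KD largazole replicate 2 (adjusted p = 0.157), nor without any 1 library of the single-perturbation groups (adjusted p = 0.0566 to 0.0661). H2-T23 and H2-Q4 share sequence with related class I genes (13.6% and 21.8% of their 50-base words), so that their split of reads is uncertain.

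**Figure D3:**
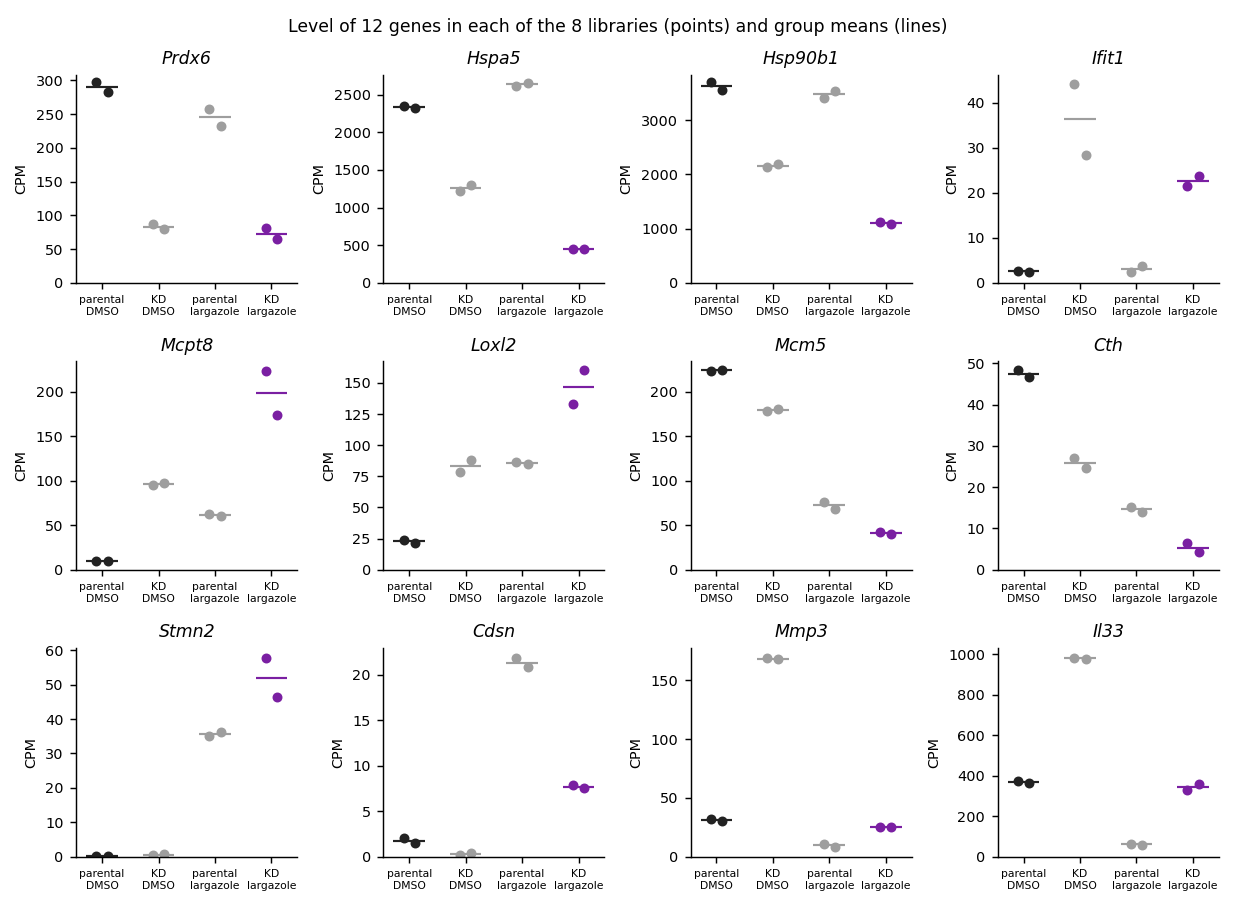
Level of 12 genes in CPM (vertical axes, linear from 0) in each of the 8 libraries, by group, with points for libraries and lines for group means. Hspa5 and Hsp90b1 are lowest in KD largazole, Mcpt8 and Loxl2 are highest there, and Mmp3 and Il33 return close to their level in parental DMSO.

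Genes of cell division fell together. Every one of 36 tested mitotic (G2/M) genes was lower in KD largazole, beside 26.9% of all genes, with a median of -1.58. So were 41 of 44 genes of DNA replication and S phase (median -1.68) and 22 of 24 of homologous recombination and the Fanconi pathway (median -1.73). For largazole alone these medians were -1.22, -0.97 and -0.996, and for the knockdown alone -0.18, -0.21 and -0.25. Mcm5, a subunit of the replicative helicase, was at 222.9 and 225 CPM untreated, 75.9 and 68.7 CPM after the drug alone, 178 and 180.3 CPM with the knockdown alone and 41.9 and 40.4 CPM with both. Each group lay apart from the others, and the combination was lowest. Mcm5 fell (-2.45 ± 0.08, adjusted p = 4.14e-08), as did Rrm2, which encodes a subunit of ribonucleotide reductase (-2.46 ± 0.09), and Mcm10, needed to start replication (-2.46 ± 0.14). Aurkb, a mitotic kinase (-2.39 ± 0.09), Foxm1, a transcription factor of mitotic genes (-1.85 ± 0.07), and the checkpoint kinase gene Chek1 (-2.27 ± 0.12) also fell.

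Of the 44 S phase genes 12 had fallen with both single perturbations, beside 1.93% of all tested genes. The combination went past the sum for Fen1, a flap endonuclease (departure -0.85), and Mcm6, another helicase subunit (-0.61). Outside the lists Fignl1, a factor of recombination repair, behaved alike (log2 fold change -1.86, departure -0.84). E2f2, an E2F transcription factor, was the S phase gene that rose (0.45 ± 0.13), and it did not pass without parental DMSO replicate 1 (adjusted p = 0.103), parental DMSO replicate 2 (0.0647) or KD largazole replicate 2 (0.11). Cdkn1a, which encodes the inhibitor p21 and is often raised by HDAC inhibitors, was at 190.2 and 189.6 CPM in parental DMSO and 209 and 178 CPM in KD largazole. The groups overlapped and the change was 0.03 ± 0.09 (adjusted p = 0.809), where largazole alone gave -0.25 and the knockdown alone 0.51. The largazole call was lost without 5 of the 8 single libraries (adjusted p up to 0.143) and the knockdown call without 3 (up to 0.0769). Of 13 tested CDK inhibitors and G1 cyclins 3 were higher and 3 lower, beside 31.3% and 26.9% of all tested genes: Cdkn1c (2.07), Rb1 (1.26) and Ccnd2 (0.42) rose, and Cdk4 (-1.22), Ccnd1 (-0.95) and Rbl1 (-1.88) fell. The call for Ccnd2 was lost without parental DMSO replicate 1 (adjusted p = 0.0515). Of 24 p53 target genes 8 were higher and 9 lower, against 31.3% and 26.9% of all tested genes.

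Genes that supply amino acids and make ribosomes were lower. Of 29 tested genes of the integrated stress response 23 fell and 2 rose, beside 26.9% and 31.3% of all tested genes. Their median was -1.13, against -0.61 with largazole and -0.04 with the knockdown alone. Cth, which makes cysteine from cystathionine, was at 48.3 and 46.6 CPM untreated, 15.3 and 14.0 CPM after the drug alone, 27 and 24.7 CPM with the knockdown alone and 6.55 and 4.18 CPM with both, with no overlap between groups. It fell (-3.16 ± 0.18, adjusted p = 4.79e-07), and both single perturbations had lowered it. As for all of the most lowered genes, KD largazole and parental DMSO lay apart by the naming rule. Slc7a11, the cystine importer, was at 28.5 and 32.4 CPM untreated, 37.1 and 37.7 CPM with the knockdown alone, 13.8 and 16.7 CPM after the drug alone and 7.64 and 8.02 CPM with both, the lowest group. It fell (-1.96 ± 0.14), with a departure of -1.26 from the sum. Trib3, a pseudokinase induced by ATF4 (log2 fold change -1.93, departure -1.14), and Chac1, which degrades glutathione (-1.75, departure -0.89), also lay below the sum, and Atf4 itself fell (-1.21 ± 0.10). Ddit4, an mTOR inhibitor, and Cebpb were the members that rose (1.65 ± 0.13 and 1.05 ± 0.14).

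Cytosolic tRNA synthetases fell in 17 of 20 cases (median -0.58), beside 26.9% of all tested genes, with Vars at -1.07 ± 0.08 and Iars at -0.98 ± 0.10. Dars rose by 0.29 ± 0.08, a call lost without parental DMSO replicate 2 (adjusted p = 0.118). Of 31 genes of ribosome biogenesis 30 fell and none rose (median -0.83). Largazole alone and the knockdown alone had each lowered 17 of the 31, beside 22.6% and 4.01% of all tested genes. The medians were -0.31 with largazole alone and -0.33 with the knockdown alone. Tcof1, a factor of ribosomal RNA transcription, went from 147 and 159.7 to 36.7 and 45.7 CPM (-1.90 ± 0.11), and Nolc1, a nucleolar assembly protein, from 239.7 and 236 to 85.0 and 84.0 CPM (-1.49 ± 0.07). The KD largazole values lay below those of every other group for both genes. Cholesterol synthesis fell in 22 of 25 genes (median -1.15), and here largazole alone gave -0.91 and the knockdown alone -0.04 with no gene past the test. Idi1 (-1.67 ± 0.08), Lss (-1.72 ± 0.13) and Cyp51 (-1.54 ± 0.08), all enzymes of that pathway, fell. Tm7sf2, a sterol reductase whose exons overlap Vps51, rose by 1.67 ± 0.12. Acat2 fell (-1.75 ± 0.08) but shares 39.1% of its 50-base words with Acat3.

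**Figure D4:**
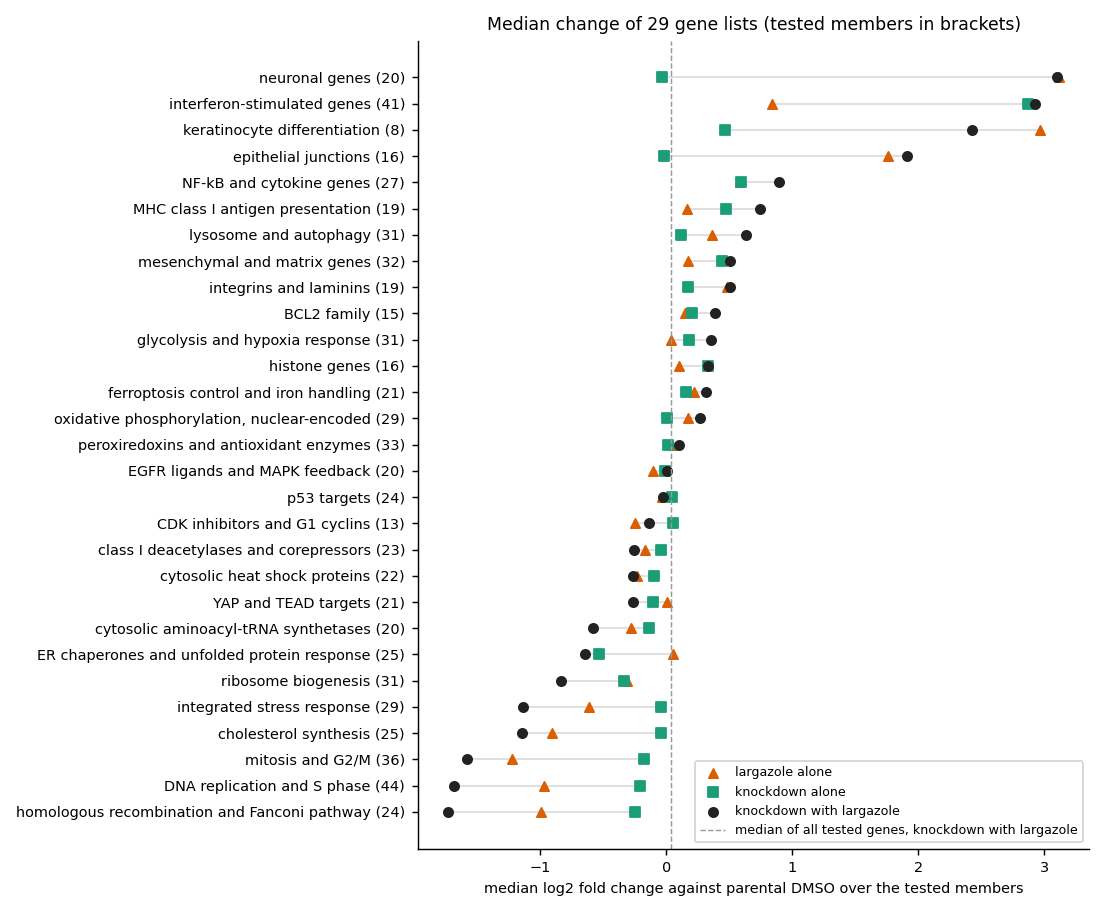
Median log2 fold change against parental DMSO (horizontal axis) over the tested members of 29 gene lists, for largazole alone (triangles), the knockdown alone (squares) and both together (circles). The interferon median of 2.92 sits on that of the knockdown, the neuronal median of 3.10 sits on that of largazole, and the replication, repair and ribosome medians lie below both single ones.

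Some genes that parental cells left silent were read in KD largazole. Of 141 tested genes with 0 counts in both parental DMSO libraries, 138 were higher in the combination, 132 with largazole alone and 5 with the knockdown alone. Such genes passed the filter only through the groups where they are high, so the share is no measure of how many silent genes respond. Against a floor of 3 counts per library, Asic1, a proton-gated ion channel, was at least 56.0-fold higher, with 13.2 and 10.5 CPM in KD largazole and 10.7 and 11.5 CPM in parental largazole. The lower bounds for Platr14, Aldh1a1, Mt3 and Nos1 were 32.9, 29.8, 25.2 and 23.7-fold. Slc17a6, a vesicular glutamate transporter, was at 0 counts in parental DMSO, 1.05 and 0.884 CPM with the knockdown alone, 1.29 and 1.52 CPM after the drug alone and 4.75 and 5.26 CPM with both. It was at least 23.6-fold higher in the combination and rose with each single perturbation. Gvin1, an interferon-inducible GTPase gene, was at 29.1 and 73.4 CPM in KD largazole and 0 in parental DMSO, but 99.2% of its 50-base words occur in related genes and its counts are uncertain.

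Many neuronal genes rose from levels near 0, so that several could pass the filter only through the groups where they are high. Of 36 members 20 were tested, of which 14 were higher and 3 lower, beside 31.3% and 26.9% of all tested genes. Their median was 3.10 in the combination, 3.11 with largazole alone and -0.04 with the knockdown alone. Stmn2, a tubulin-binding protein of growing axons, was at 0.0739 and 0.202 CPM untreated, 35.1 and 36.4 CPM after the drug alone, 0.329 and 0.737 CPM with the knockdown alone and 57.8 and 46.3 CPM with both. The largazole libraries of both genotypes stood far above the DMSO libraries, and the combined log2 fold change was 8.44 ± 0.32. Uchl1, a neuronal ubiquitin hydrolase, rose from 0.887 and 0.810 to 156 and 113 CPM (7.29 ± 0.31), and Syp, synaptophysin, from 1 count over both parental DMSO libraries to 14.3 and 11.9 CPM, a ratio of 370.0 (interval 66.0 to 14700). Nefm, Nefl and Cplx2 went against the list and fell. The neurofilament genes Nefm (-1.93 ± 0.08) and Nefl (-1.16 ± 0.11) are neighbours with overlapping exons on opposite strands and had fallen with each single perturbation, and the call for Cplx2 (-0.70 ± 0.18) was lost without parental DMSO replicate 2 (adjusted p = 0.0518).

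Epithelial junction genes rose too, from levels near 0. Of 28 members 16 were tested, 15 of them higher and 1 lower, beside 31.3% and 26.9% of all tested genes. Their median was 1.91, against 1.76 with largazole alone and -0.02 with the knockdown alone. The other 12, Cdh1 among them, had too few counts, and a member that starts near 0 could pass the filter only where it is high. Without parental DMSO replicate 1 the number higher was 9. Epcam, an epithelial adhesion molecule, was at 0 counts in parental DMSO and at 3.97 and 3.03 CPM in KD largazole, at least 16.5-fold higher. Ppl, periplakin, rose from 1.11 and 1.21 to 12.3 and 15.1 CPM (3.55 ± 0.23). Dsc2, desmocollin 2, rose with each single perturbation and reached 21.5 and 27.2 CPM from 3.99 and 4.45 (2.52 ± 0.21). Of 24 keratinocyte differentiation genes in the data 8 were tested, and the others had too few counts. Of these 8, 6 were higher and 1 lower, beside 31.3% and 26.9% of all tested genes. Here too members near 0, such as Krt13 and Sprr1b, could pass the filter only through the groups where they are high. Sprr1b, a cornified envelope precursor, rose from 2 counts over both parental DMSO libraries to 8.18 and 5.19 CPM, a ratio of 93.3 (interval 25.4 to 776), and Sprr1a by 2.41 ± 0.30. Klf4 fell (-0.27 ± 0.09), a call lost without parental DMSO replicate 2 (adjusted p = 0.214).

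Of 32 tested mesenchymal and matrix genes 17 rose and 2 fell (median 0.51), beside 31.3% and 26.9% of all tested genes. Of the 32, 9 had risen with both single perturbations, beside 3.99% of all tested genes. Loxl2, a lysyl oxidase that crosslinks collagen, was at 24.2 and 21.7 CPM untreated, 86.8 and 85.2 CPM after the drug alone, 78.4 and 88.3 CPM with the knockdown alone and 133 and 160.4 CPM with both. The combination was above both single groups, with a log2 fold change of 2.68 ± 0.12 and a departure of -1.09. Its transcripts share 45.0% of their 50-base words with other annotated genes. Thy1, a surface glycoprotein of fibroblasts, behaved alike (2.79 ± 0.12, departure -1.08). Fbn1, fibrillin 1 (2.40 ± 0.11), Lox (2.06 ± 0.11) and Col6a2, a chain of collagen VI (3.55 ± 0.17), rose as well, with departures that did not pass. Col6a3 (-0.34) and Vim (-0.27) fell. Both calls were lost without parental DMSO replicate 1 (adjusted p = 0.0607 and 0.11) or replicate 2 (0.121 and 0.0546). Fibroblast markers summed to 3620 and 3610 CPM untreated, 3590 and 3660 CPM after the drug alone, 5170 and 5250 CPM with the knockdown alone and 4510 and 5150 CPM with both, and their part in these changes was not tested.

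Of 34 NF-kB and cytokine genes 27 were tested, of which 15 rose and 3 fell (median 0.90), beside 31.3% and 26.9% of all tested genes. Members that start near 0, such as Il6, could pass the filter only through the groups where they are high. Cxcl5, a chemokine for neutrophils, was at 0.296 and 1.15 CPM untreated, 4.43 and 4.61 CPM after the drug alone, 8.56 and 7.66 CPM with the knockdown alone and 26.6 and 22.7 CPM with both, and rose by 5.04 ± 0.32. Ccl2, a chemokine for monocytes, went from 63.2 and 63.2 to 393 and 292 CPM (2.44 ± 0.13) and Il6 from 0.222 and 0.202 to 5.53 and 4.18 CPM (4.46 ± 0.48). The subunit genes Nfkb1, Nfkb2 and Relb fell, with -0.47, -0.53 and -0.88. Other genes that rose with both perturbations and highest in the combination were Mcpt8, a protease gene, from 9.32 and 9.58 to 223.4 and 174 CPM (4.39 ± 0.14, departure -1.66), Tns4, a focal adhesion protein (4.58 ± 0.20), Slc16a4, a transporter of the monocarboxylate family (4.24 ± 0.31), and Lgals9, galectin 9 (4.07 ± 0.32). Apol9a and Apol9b rose by 4.19 ± 0.32 and 3.90 ± 0.31, and since Apol9b shares 52.3% of its 50-base words with Apol9a the split between them is uncertain.

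Among the genes lowered by both, Esm1, an endothelial proteoglycan gene, was at 147 and 141 CPM untreated, 15.1 and 16.8 CPM after the drug alone, 78.8 and 85.2 CPM with the knockdown alone and 9.12 and 9.84 CPM with both. The 4 groups did not overlap, and for KD largazole and parental DMSO that was a condition for counting among the most lowered genes. The fall of -3.92 ± 0.11 lay 0.07 from the sum. Rnf165, a ubiquitin ligase gene, fell (-3.74 ± 0.28), as did Ptchd1 (-2.67 ± 0.19), Ralb, a small GTPase (-1.44 ± 0.10), and Igfbp3, an IGF binding protein (-1.47 ± 0.13). The single changes of Igfbp3 were -1.08 and -1.11 (departure 0.71, adjusted p = 0.178). Other genes among the most lowered were Adcy8, an adenylyl cyclase (-4.60 ± 0.38), Nptx1, a neuronal pentraxin (-3.41 ± 0.14), Hirip3, a histone chaperone partner (-3.00 ± 0.13), Npr3, a natriuretic peptide receptor (-2.66 ± 0.17), the mitotic kinesin gene Kif15 (-2.58 ± 0.15) and the helicase gene Recql4 (-2.54 ± 0.16).

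In 194 genes the single perturbations opposed each other. Of these 82 (0.655% of all tested) rose with largazole and fell with the knockdown, and 112 (0.895%) did the reverse. In the combination 51 of the 194 ended on the side of largazole, 47 on that of the knockdown and 96 did not pass. Of the 10 genes named in each kind, 4 of the first and 9 of the second kept both single calls whichever library was left out. Without one library the number of opposing genes was 49 and 40 (parental DMSO replicate 1 and 2), 68 and 80 (KD DMSO), 105 and 110 (parental largazole) and 502 and 504 (KD largazole).

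Mmp3, stromelysin 1, which degrades matrix, was at 31.6 and 30.4 CPM untreated, 11 and 7.84 CPM after the drug alone, 169 and 168 CPM with the knockdown alone and 25.3 and 25.1 CPM with both. The combination lay just under the untreated level (-0.30 ± 0.13, adjusted p = 0.0679), where the drug alone had given -1.72 and the knockdown alone 2.44. It passed as a fall without parental largazole replicate 1 (adjusted p = 0.0273) or replicate 2 (0.0291). Il33, an alarmin cytokine, was at 373 and 366 CPM untreated, 62.0 and 58.2 CPM after the drug alone, 984 and 977 CPM with the knockdown alone and 330.0 and 359.6 CPM with both. Its combined change was -0.10 ± 0.07 (adjusted p = 0.264), 1.11 above the sum, and it passed as a fall of -0.18 without KD largazole replicate 2 (adjusted p = 0.0209). Stc1, stanniocalcin 1 (-0.30 ± 0.14), and Dio2, a deiodinase that activates thyroid hormone (0.33 ± 0.14), likewise did not pass. Leaving out KD largazole replicate 2 made Stc1 pass (adjusted p = 0.00166), and leaving out its replicate 1 made Dio2 pass (0.046).

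Others of the genes lowered by largazole and raised by the knockdown passed in the combination. Tnc, the matrix protein tenascin C, and Mmp10, stromelysin 2, ended below parental DMSO (-0.52 ± 0.10 and -0.91 ± 0.15), the side of largazole. Lgals3bp, a secreted galectin ligand (1.56 ± 0.25), Serpinf1, the angiogenesis inhibitor PEDF (0.45 ± 0.10), and Col3a1, the main chain of collagen III (0.41 ± 0.08), ended above it, the side of the knockdown. Casp1, the inflammatory caspase, ended 0.32 ± 0.10 above, a call lost without parental DMSO replicate 1 (adjusted p = 0.15), parental DMSO replicate 2 (0.0577) or KD largazole replicate 1 (0.0619).

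Of the 82 genes raised by largazole and lowered by the knockdown, 35 ended higher, 14 ended lower and 33 did not pass. Cdsn, corneodesmosin, an adhesion protein of cornified cells, was at 2.00 and 1.48 CPM untreated, 21.9 and 20.8 CPM after the drug alone, 0.198 and 0.368 CPM with the knockdown alone and 7.87 and 7.55 CPM with both. Thus the combination lay between the drug alone and the untreated cells, at 2.15 ± 0.22. Chchd10 (4.24 ± 0.32), Lama5, a laminin chain (3.19 ± 0.18), Syngr1, a synaptic vesicle protein (2.82 ± 0.28), Als2cl (1.79 ± 0.25), Cdk18 (1.37 ± 0.16), Kcnab3, a potassium channel subunit (1.32 ± 0.24), Rab6b (1.09 ± 0.24) and Adam8, a membrane metalloprotease (0.86 ± 0.09), also ended higher. Arhgef10, a guanine nucleotide exchange factor, ended lower (-0.73 ± 0.21), a call lost without parental DMSO replicate 2 (adjusted p = 0.081). Ctgf, a target of the YAP pathway, went from 17.5 and 17.1 to 34.4 and 30.1 CPM with largazole alone, to 5.99 and 7.59 CPM with the knockdown alone and to 8.42 and 7.15 CPM with both (-1.15 ± 0.16). Among the 21 tested YAP and TEAD targets 10 fell and 3 rose, beside 26.9% and 31.3% of all tested genes. These counts moved when single libraries were left out. Cyr61 fell below the sum (-2.01 ± 0.09, departure -0.79).

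**Figure D5:**
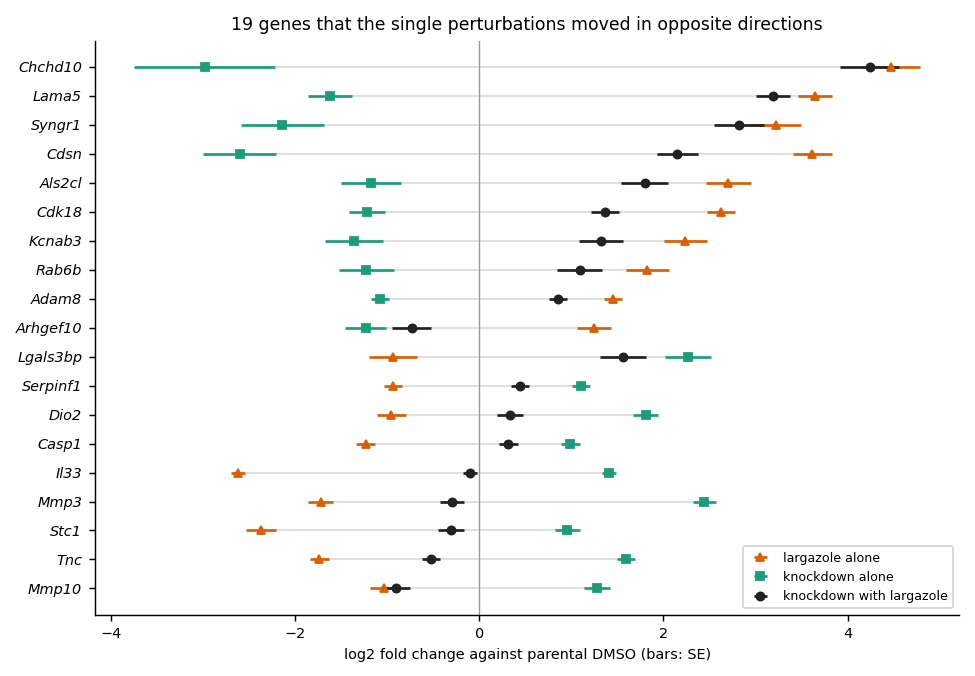
Log2 fold change against parental DMSO (horizontal axis, bars are SE) for 19 of the 20 named genes that the single perturbations moved in opposite directions, Gm5424 left out. Circles for the combination lie between the triangles of largazole alone and the squares of the knockdown alone for all 19, near 0 for Il33, Mmp3, Stc1 and Dio2.

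Among 31 tested genes of the hypoxia response and glycolysis 17 were higher and 2 lower (median 0.36), beside 31.3% and 26.9% of all tested genes. Car9, a carbonic anhydrase and hypoxia marker, was at 5.10 and 6.81 CPM untreated, 18.8 and 17.3 CPM after the drug alone, 7.38 and 8.25 CPM with the knockdown alone and 41.7 and 32.4 CPM with both, a rise of 2.63 ± 0.19. Bnip3, a mitophagy receptor, was at 97.4 and 90.1 CPM untreated, 74.1 and 66.4 CPM after the drug alone, 156 and 159 CPM with the knockdown alone and 248 and 214 CPM with both. Largazole alone had lowered it, yet the combination was highest (1.30 ± 0.10, departure 0.97). Vegfa (0.87 ± 0.08), which drives vessel growth, had the same signs, but its fall with largazole was lost without 4 of the 8 single libraries (adjusted p up to 0.142). Eno2, an enolase, also ended above the sum (1.28 ± 0.10, departure 0.86). Slc2a1, Hk2, Gapdh, Pgk1 and Ldha were among the 12 that did not pass, though Gapdh, Pgk1 and Ldha passed as falls when KD largazole replicate 1 was left out (adjusted p = 0.0272, 0.0237 and 0.00169). Pfkl fell (-0.51 ± 0.08), and so did Tpi1 (-0.29 ± 0.11), whose call was lost without any 1 library other than KD largazole replicate 1 (adjusted p = 0.0502 to 0.155).

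Lysosome and autophagy genes rose in 27 of 31 cases (median 0.63), beside 31.3% of all tested genes. With largazole alone 23 were higher, beside 26.8% of all tested genes. Cd68, a lysosomal membrane glycoprotein, was at 3.92 and 4.39 CPM untreated, 62.1 and 61.5 CPM after the drug alone, 4.35 and 4.42 CPM with the knockdown alone and 47.5 and 41.1 CPM with both, high in both largazole groups (3.41 ± 0.14). Map1lc3b, which marks autophagosomes (1.67 ± 0.10), and the proton pump subunit genes Atp6v0a1 (1.56 ± 0.10) and Atp6v0d1 (1.45 ± 0.10) rose, and Cd63 fell (-0.36 ± 0.14, lost without any 1 of several libraries, adjusted p = 0.156 without parental DMSO replicate 1 and 0.0912 without replicate 2, 0.0606 and 0.0547 without KD DMSO replicate 1 and 2, and 0.0942 without KD largazole replicate 2).

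Of 33 tested peroxiredoxins and antioxidant enzymes 15 were higher and 7 lower (median 0.10), beside 31.3% and 26.9% of all tested genes, and 12 were lower without KD largazole replicate 1. Txnip, which binds thioredoxin, rose from 9.24 and 9.58 to 72.1 and 71.3 CPM (2.93 ± 0.10), Sod3, extracellular superoxide dismutase, from 114 and 114 to 414 and 329 CPM (1.71 ± 0.12), Gsta4, a glutathione transferase, from 0.887 and 0.607 to 42.3 and 34.6 CPM (5.68 ± 0.28) and Prdx5, a peroxiredoxin, from 48.0 and 46.4 to 157 and 103 CPM (1.46 ± 0.17). Nfe2l2, the gene of the antioxidant factor NRF2 (-0.48 ± 0.08), Txnrd1 (-0.74 ± 0.07), Srxn1 (-0.58 ± 0.07) and Gclc, which starts glutathione synthesis (-0.91 ± 0.12), were among the 7 that fell. Of 21 tested genes of ferroptosis and iron handling 10 rose and 6 fell, beside the same shares. The ferritin chain gene Fth1 rose by 1.21 ± 0.12, Slc40a1, the iron exporter, by 2.36 ± 0.34, and Gch1, which makes tetrahydrobiopterin, by 1.22 ± 0.12, while the transferrin receptor gene Tfrc fell (-0.92 ± 0.16). Gpx4, which reduces lipid hydroperoxides, was at 205 and 201 CPM untreated, 304 and 273 CPM after the drug alone, 200.3 and 205 CPM with the knockdown alone and 375 and 261 CPM with both. It rose by 0.65 ± 0.14 (adjusted p = 0.00269), and 34.7% of its 50-base words occur in a pseudogene.

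Of the deacetylase genes, Hdac1 went from 158 and 166 to 216 and 207 CPM (0.38 ± 0.08), Hdac2 from 193 and 183 to 154 and 138 CPM (-0.36 ± 0.08) and Hdac3 from 121 and 111 to 106 and 96.2 CPM (-0.20 ± 0.09, adjusted p = 0.072). Hdac1 rose and Hdac2 fell, and Hdac3 passed as a fall without KD largazole replicate 1 (adjusted p = 0.00978); 35.3% of the words of Hdac1 occur in other annotated genes. Among 23 tested class I deacetylases and corepressors 8 fell, Chd3 (-0.99 ± 0.11) and Mbd3 (-0.77 ± 0.10) of the NuRD complex among them, and 4 rose, where 26.9% of all tested genes fell and 31.3% rose. Without KD largazole replicate 2, 13 fell. Cytosolic heat shock genes fell in 11 of 22 cases and rose in 3, beside 26.9% and 31.3% of all tested genes. Hspd1 (-1.14 ± 0.07) and Fkbp4 (-1.08 ± 0.09) fell, while the small heat shock genes Hspb1 (2.54 ± 0.14) and Cryab (1.60 ± 0.17) rose. Hspd1 and Hspb1 share 39.7% and 48.8% of their 50-base words with other annotated genes. In the BCL2 family 10 of 15 tested genes rose and 2 fell, beside 31.3% and 26.9% of all tested genes. Bmf, a pro-apoptotic member, rose by 2.92 ± 0.27 and Bnip3l by 1.16 ± 0.07, and Bak1 (-0.71 ± 0.10) and Bok (-1.02 ± 0.22) fell.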

How the data were processed

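PolyA RNA of 8 libraries, 2 per group, was prepared with a directional kit, per the labels' protocols. Values were deposited as estimated counts for each gene symbol, with mm10 as the build per the submitters' processing notes. For the aligner, counter, strand setting and annotation: not given in the sources used here. Counts were rounded to whole numbers, and no column of values was left out. Among the symbols, 27 had been turned into dates and were not named. Genes were kept by edgeR 4.0.16's filterByExpr (minimum count 10, total 15), scaled by TMM and tested with edgeR's two-sided quasi-likelihood test in 1 fit of all 8 libraries, with Benjamini-Hochberg adjustment over 12517 genes and a threshold of 0.05. Departure is the combined log2 change minus the sum of both single log2 changes. In data simulated with the same spread in every group, the combined comparison recovered 94% of 2-fold changes.

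Named were Prdx6, Hdac1, Hdac2, Hdac3, Cdkn1a, Gpx4 and Slc7a11; the 12 genes most raised and most lowered at 5 CPM or more; the 10 with the largest smaller single change of each adding or opposing kind; the 8 with the largest departure of each sign; and up to 6 members per list, plus those against its majority. The most raised and most lowered genes were taken only where replicates of KD largazole and parental DMSO did not overlap. Other list members were named after their values were seen. The members and the 29 lists were chosen with earlier results of these data known. Alternatives were other scalings, filters, DESeq2 1.42.0, limma 3.58.1 (voom), a fit of the libraries compared alone, a replicate block, leaving out Rn45s and leaving out each library. Gene positions are from GENCODE on GRCm38, promoter windows (250 bases before and 50 after the start) from RefSeq, and shared sequence was measured over words of 50 bases. Scripts ran in R 4.3.3 and Python 3.11.15. A few genes that the rule would name are not reported here.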

Additional observations from a re-analysis of the deposited data

Results flagged for a closer look

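The 29 genes whose response to largazole differed between KD and parental cells by the test of that difference are given here with the size of the difference, the log2 fold change of largazole in KD cells minus that in parental cells, which equals the departure from the sum. Each call other than those of Hspa5 and Gm5424 was lost without at least 4 of the 8 single libraries. In data simulated at this depth, with the same spread in every group and a fixed number of true departures, 8.82% of such calls were false. That share depends on these settings and need not hold for the 29 calls.

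Differences below 0 in ER genes were -1.66 for Hspa5, -1.21 for Herpud1, -1.13 for Creld2, -0.99 for Pdia4, -0.91 for Hsp90b1, -0.85 for Hyou1, -0.79 for Calr and -0.69 for Dnajc3. In genes of the integrated stress response they were -1.26 for Slc7a11, -1.14 for Trib3 and -0.89 for Chac1, and in genes of replication and repair -0.85 for Fen1, -0.84 for Fignl1 and -0.61 for Mcm6. Genes that rose in the combination but less than the sum were Mcpt8 (-1.66), Ggt7 (-1.15), Loxl2 (-1.09), Thy1 (-1.08), Clu (-1.08), Rnase4 (-1.04), Odc1 (-0.89) and Cited2 (-0.80). Cyr61, which fell, had a difference of -0.79. Differences above 0 were 0.86 for Eno2, 0.89 for Itgbl1, 0.97 for Bnip3 and 1.11 for Il33.

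Ass1, the gene of argininosuccinate synthase, had a difference of -7.61, and its near copy Gm5424 one of 9.86. Of the 50-base words of Gm5424, 76.5% occur in Ass1. Ass1 was at 0.739 and 0 CPM untreated, 22.3 and 21.9 CPM after the drug alone, 8.36 and 6.92 CPM with the knockdown alone and 0.701 and 3.91 CPM with both, where Gm5424 was at 4.21 and 4.32, 0 and 0, 14.1 and 14.5 and 26.6 and 27.6 CPM. The sum of both was 4.95 and 4.32 CPM untreated, 22.3 and 21.9 CPM after the drug alone, 22.5 and 21.4 CPM with the knockdown alone and 27.3 and 31.6 CPM with both. The separate values of either gene are uncertain, since reads of one may have been counted for the other.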

How the results depend on the processing

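The number of genes higher in KD largazole was 3068 to 4259 and of genes lower 2553 to 3919 when 1 library was left out. For largazole alone these ranges were 2309 to 4077 and 1914 to 3806, for the knockdown alone 330 to 1626 and 84 to 1471, for departures above and below the sum 1 to 211 and 1 to 333, for adding genes 200 to 1696 and for opposing genes 40 to 504. With the libraries compared fitted alone, 1734 genes rose and 1514 fell with the knockdown. Departures above the sum numbered 3 with scaling by library totals, 25 without a filter and 21 with DESeq2, and those below it 89 without a filter and 62 with DESeq2. In the combined comparison DESeq2 called 3535 higher and 3200 lower, and upper-quartile scaling, which moved the median of all genes by 0.1 on the log2 scale, 4510 and 2774. Leaving out Rn45s gave 3926 higher and 3375 lower in that comparison.

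The labels give the groups shared replicate numbers, but the sources do not say what a number marks. Deviations of same-numbered libraries correlated at 0.146 between parental DMSO and parental largazole, 0.273 and 0.364 between parental largazole and KD DMSO or KD largazole, and 0.343 between the KD groups. They did so at only 0.00167 and -0.00767 between parental DMSO and KD DMSO or KD largazole, so the numbers were not taken to pair all samples. With the replicate block 862 genes fell with the knockdown, 27 genes departed above and 92 below the sum, 1135 added and 302 opposed, while 4184 were higher and 3728 lower in the combined comparison. With 2 libraries per group, small departures are beyond the precision of these data, and intervals and floors cover counting error only.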

Other observations

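Gene lists beyond those described above moved as follows in KD largazole against parental DMSO. Among nuclear-encoded genes of oxidative phosphorylation, Sdhc, a subunit of succinate dehydrogenase, rose from 86.4 and 83.0 to 172 and 127 CPM (0.82 ± 0.13). Cox4i1, a subunit of cytochrome oxidase, rose too (0.55 ± 0.13). Of the 29 tested genes of this list 12 were higher and none lower (median 0.27), beside 31.3% and 26.9% of all tested genes. That count was 6 without either parental DMSO library and 21 without KD largazole replicate 2, and 5 genes were lower without KD largazole replicate 1. Of 19 integrins and laminins 9 rose and 3 fell, beside 31.3% and 26.9% of all tested genes. Itgb5 rose by 1.46 ± 0.07 and Lamb3, a chain of laminin 332, from 0.813 and 1.08 to 8.96 and 9.17 CPM (3.24 ± 0.23), while Itga5, the fibronectin receptor chain, fell (-0.57 ± 0.08), as did Itga6 (-0.84 ± 0.11). Without KD largazole replicate 2, 6 fell. Of 16 tested histone genes 5 rose and 5 fell, beside the same shares (8 rose without KD largazole replicate 2), with Hist1h2bc at 2.21 ± 0.18 and H1fx at 3.51 ± 0.30 on one side and H2afx at -2.06 ± 0.13 and H2afz at -0.98 ± 0.13 on the other. Of 20 genes of EGFR ligands and MAPK feedback 8 rose and 7 fell, beside 31.3% and 26.9% of all tested genes (11 fell without KD largazole replicate 2). Egfr itself had 3 counts over both parental DMSO libraries and 1.95 and 2.16 CPM in KD largazole, and Ereg, an EGFR ligand, rose by 1.61 ± 0.09, while another ligand gene, Hbegf, fell (-1.15 ± 0.09).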
